A study of Mus musculus with 6 samples.

Results

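The 10 genes described here belong to the heat shock response, measured in the epithelial fraction of the mouse colon: the inducible HSP70 pair Hspa1a and Hspa1b, the small heat shock protein Hspb1, the HSP110 gene Hsph1, the J-domain cochaperones Dnajb1 and Dnaja1, the constitutive HSP70 Hspa8, the HSP90 genes Hsp90aa1 and Hsp90ab1, and the cochaperone Bag3. They were taken by gene symbol from a chosen set of chaperones, and all 10 were found among the 46078 gene rows of the count table. RNA was sequenced from 3 libraries of Lingo2-/- mice and 3 libraries of wild type mice, all aged 2 months and kept under naive conditions. Epithelial cells were released from the colon with EDTA and DTT, and their RNA was extracted no more than 1 hour after the tissue was taken. Neither the strain nor the Lingo2 allele is given in the labels, and whether each library is a separate animal is not stated, so p-values cover only the library-to-library spread, which may be technical.

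Heat shock proteins are chaperones that hold unfolded proteins, help them fold or hand them on for degradation. HSP70 proteins bind exposed stretches of a client in cycles of ATP hydrolysis, J-domain proteins start each cycle, HSP110 and BAG proteins exchange the nucleotide, and HSP90 proteins finish the folding of kinases, receptors and other clients. When unfolded proteins accumulate, the transcription factor HSF1 binds heat shock elements in promoters and induces Hspa1a, Hspa1b, Hspb1, Hsph1, Dnajb1 and Bag3, while Hspa8 and Hsp90ab1 are made in nearly all cells without stress. In the gut the inducible members are known as protective proteins of the surface epithelium that respond to microbial products, injury and handling.

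Hspa1a and Hspa1b are a tandem pair without introns on chromosome 17, minus strand, in GRCm38. Hspa1a spans 34969190 to 34972156 and Hspa1b spans 34956436 to 34959238, with 9951 bases between them. The promoter stretches below are the 130 bases before a RefSeq start of 4 genes on which the comparison turns. They come from the RefSeq table of GRCm38.p6 and read 5′ to 3′ on the gene's own strand. They are shown because Hspa1a and Hspa1b share nearly the same upstream sequence, and because Hsph1 and Hspb1, which were measured at other levels, hold the same kind of motif. Capitals mark matches to a heat shock element core, searched as GAANNTTC and TTCNNGAA, each of which reads the same on both strands.
Hspa1a, chr17:34972157-34972286, minus strand: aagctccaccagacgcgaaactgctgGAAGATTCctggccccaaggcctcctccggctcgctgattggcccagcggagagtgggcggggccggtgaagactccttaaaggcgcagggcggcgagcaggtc
Hspa1b, chr17:34959239-34959368, minus strand: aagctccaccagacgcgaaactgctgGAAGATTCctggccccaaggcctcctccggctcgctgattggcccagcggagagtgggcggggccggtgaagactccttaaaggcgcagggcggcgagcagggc
Hsph1, chr5:149636337-149636466, minus strand: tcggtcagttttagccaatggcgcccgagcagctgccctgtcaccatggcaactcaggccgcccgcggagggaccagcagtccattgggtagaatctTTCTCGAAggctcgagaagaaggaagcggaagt
Hspb1, chr5:135887789-135887918, plus strand: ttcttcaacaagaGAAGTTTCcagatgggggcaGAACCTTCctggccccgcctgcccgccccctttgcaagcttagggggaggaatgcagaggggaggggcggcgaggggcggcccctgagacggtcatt

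The Hspa1a and Hspa1b stretches differ at 1 of the 130 bases shown and at 3 of the 250 bases before the start, and each holds 1 match, which begins at −104 counted from the start. Hspb1 holds 2 matches, which begin at −117 and −97. Hsph1 holds 1, which begins at −33 from the start shown and at −54 from its other RefSeq start. Over the 250 bases before each start, 5 of the 7 members with a promoter entry held a match at 1 start or more, the other being Dnaja1, against 14.5% of 27025 genes in the table and 12.8% of 32851 start windows. Bag3 and Dnajb1 held none in this window, and Hspa8, Hsp90aa1 and Hsp90ab1 had no entry. A match describes the letters and not a bound site.

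Lingo2 itself had 1, 1 and 0 reads in Lingo2-/- replicates 1, 2 and 3 and 0, 7 and 0 reads in wild type replicates 1, 2 and 3, which is too few to test the labels against. Gene reads numbered 7060769 to 13047682 in Lingo2-/- libraries and 25010618 to 28029583 in wild type libraries, so the Lingo2-/- libraries were the shallower ones throughout. Of all reads in the count table and its summary lines, the share outside annotated features was 23.6% to 27.6% in Lingo2-/- libraries and 18.5% to 22.1% in wild type libraries. The mitochondrial share of gene reads was 35.7% to 39.8% in Lingo2-/- libraries and 45.3% to 48.4% in wild type libraries. The 9 colon epithelial markers, among them Epcam, Krt8 and Vil1, were all detected and summed to 12270 to 13990 CPM in Lingo2-/- and 13160 to 13910 CPM in wild type libraries. CPM is a gene's reads scaled to a common library size, here after TMM scaling, which adjusts for a few genes that take many reads. All 9 T cell and intraepithelial lymphocyte markers fell, and their sum was 81.8 to 107 CPM in Lingo2-/- and 311 to 367 CPM in wild type libraries. In these bulk libraries fewer cells of a type and less RNA per cell cannot be told apart. Of 6 myeloid markers 2 fell, Ptprc and Tyrobp, and the sum of all 6 was 157 to 209.5 CPM in Lingo2-/- and 210.0 to 235 CPM in wild type libraries. Of 3 erythrocyte markers 0 passed by edgeR, although 3 had an unadjusted p under 0.05 and 3 passed by DESeq2, and their sum was 191 to 317 CPM in Lingo2-/- and 317 to 530 CPM in wild type libraries. The 3 endothelial markers summed to 8.56 to 9.60 CPM in Lingo2-/- and 9.63 to 13.2 CPM in wild type libraries. The 4 B and plasma cell markers were not lower as a set. Their sum was 21.4 to 25.1 CPM in Lingo2-/- and 11.9 to 26.4 CPM in wild type libraries, and the groups overlapped. Of the count table and its summary lines, non-unique alignments made up 30.8% to 33.9% in Lingo2-/- and 36.5% to 36.9% in wild type libraries. Ambiguous reads made up 1.34% to 1.57% in Lingo2-/- and 1.23% to 1.28% in wild type libraries. The depth, these 2 shares, the share outside features and the mitochondrial share did not overlap between genotypes, as for the Hspa1 genes. The lymphocyte, myeloid and endothelial sums did not overlap either. Ptprc made up much of the myeloid sum, at 99.5 to 105.5 CPM in Lingo2-/- and 126 to 159 CPM in wild type libraries. Of the other myeloid markers, Csf1r, Adgre1, Itgam and Lyz2 overlapped between genotypes and did not pass by edgeR. The part of the depth, the shares and the marker sums in the results below was not tested.

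The inducible HSP70 pair was higher in every Lingo2-/- library than in any wild type library, while Hspa8 and the HSP90 genes had fitted fold changes near 0. Of the 10 genes, 1 passed the test, Hspa1a, which rose 5.94-fold in Lingo2-/- libraries. Of the 16757 genes in the edgeR fit, 1.04% rose, 1.52% fell and 2.57% changed in either direction at an adjusted p (Benjamini-Hochberg) under 0.05. The authors' deposited table, made with DESeq2, has 2 of the 10 genes higher at that threshold, Hspa1a and Hspa1b, where 1.9% of its 14338 genes were higher and 4.71% changed. Both Hspa1 genes had groups that did not overlap, with Lingo2-/- above, as did 12.3% of all genes tested; 0 members had Lingo2-/- below, as did 11.8%, and 24.1% of all genes had groups apart in either direction. All 10 genes passed the filter on low counts. Their fitted log2 fold changes had a median of 0.13, against 0.001 over all genes tested, and 9 of the 10 lay above 0, against 8403 of 16757. Those of Hspa8, Hsp90aa1, Hsp90ab1 and Bag3 changed sign under some other settings, given below. The 10 genes share libraries and scaling, so this count of signs is a description.

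**Figure D1:**
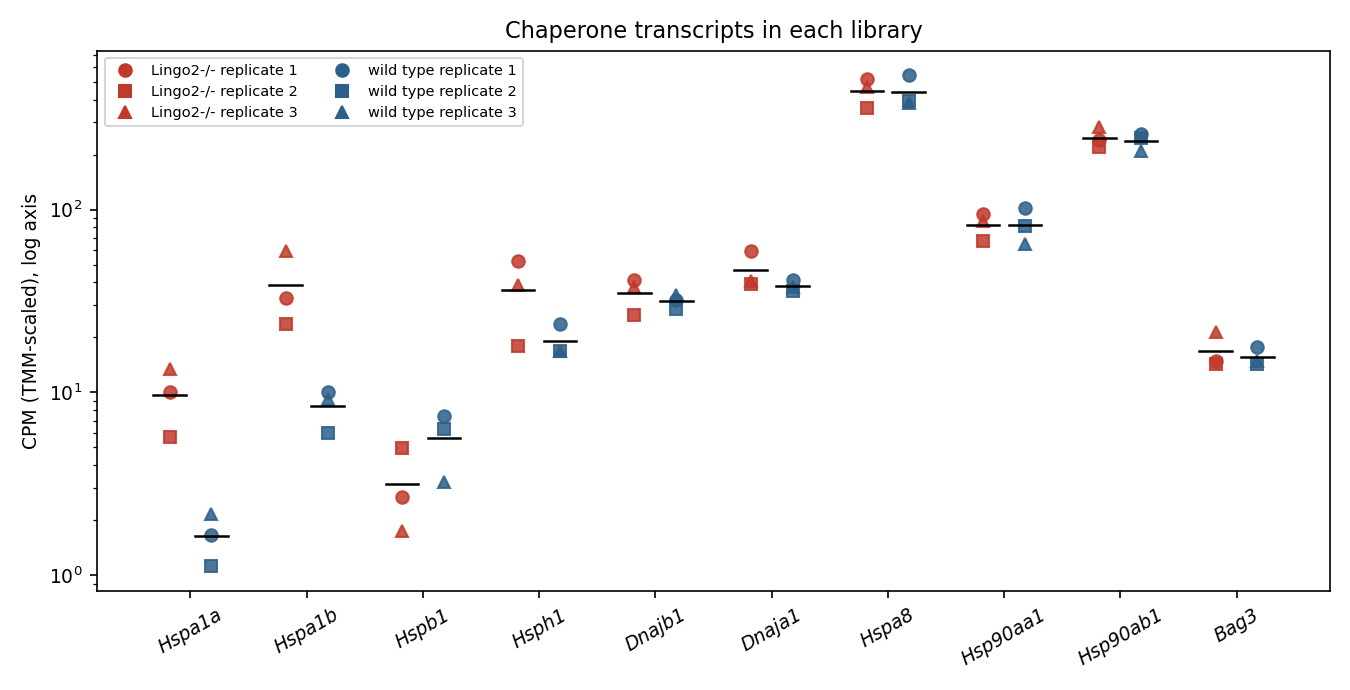
Level of each of the 10 chaperone genes in every library, in TMM-scaled CPM on a log axis, with Lingo2-/- points in red left of wild type points in blue, a symbol for each replicate number and a black bar for the group mean. The Lingo2-/- points of Hspa1a (5.73 to 13.4 CPM) and Hspa1b (23.8 to 59.2 CPM) lie above all their wild type points, and the groups overlap for the other 8 genes.

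Hspa1a encodes inducible HSP70, which is scarce in unstressed cells. It had 145, 46 and 116 reads in Lingo2-/- replicates 1, 2 and 3, against 36, 30 and 51 reads in wild type replicates 1, 2 and 3, although the wild type libraries were the deeper ones. In CPM these were 9.997, 5.73 and 13.4 in Lingo2-/- libraries and 1.66, 1.12 and 2.17 in wild type libraries. The lowest Lingo2-/- library, replicate 2, lay above the highest wild type library, replicate 3. The mean was 9.72 ± 3.85 CPM in Lingo2-/- and 1.65 ± 0.527 CPM in wild type libraries (SD, n = 3 each), and the fitted log2 fold change was 2.57 ± 0.33 (SE; edgeR adjusted p = 0.00365; 95% interval 1.83 to 3.31; intervals here are before adjustment over genes). It passed whichever library was left out, with fold changes of 2.28 to 2.82 on the log2 scale and edgeR adjusted p-values of 0.00194 to 0.0243.

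Hspa1b encodes nearly the same HSP70 protein and carried most reads of the pair. It had 477, 191 and 512 reads in Lingo2-/- replicates 1, 2 and 3 and 218, 161 and 217 reads in wild type replicates 1, 2 and 3. These came to 32.9, 23.8 and 59.2 CPM in Lingo2-/- libraries and to 10.03, 6.004 and 9.24 CPM in wild type libraries. The groups did not overlap, and Lingo2-/- replicate 3 stood well above the other two. The mean was 38.6 ± 18.4 CPM in Lingo2-/- and 8.42 ± 2.13 CPM in wild type libraries (SD, n = 3 each), at a log2 fold change of 2.20 ± 0.41 (SE; edgeR adjusted p = 0.0718), so Hspa1b did not pass over all genes. It passed without Lingo2-/- replicate 2 (edgeR adjusted p = 0.0470) or replicate 3 (0.0188), and also with DESeq2 (adjusted p = 0.000102) and with dispersions that are not robust (edgeR adjusted p = 0.00498). Over its alternatives the adjusted p ran from 0.000102 to 0.174. In the authors' deposited table its log2 fold change is 2.21 with an adjusted p of 8.76e-05, and that of Hspa1a is 2.58 with 1.77e-13.

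The 2 paralogs share so much sequence that their counts are not fully separate. Of the 75-base stretches in their annotated transcripts, 38.3% of Hspa1a and 44.2% of Hspa1b occur in the transcripts of no other gene, and 52.7% of those of Hspa1a occur in Hspa1b. The read length is not given in the sources used here, and at 50 and 100 bases the unshared portion was 33.7% and 43.5% for Hspa1a and 37.7% and 50.1% for Hspa1b. Alignments that were not unique are on a line of their own in the count table, so both genes are counted from the rest of their length. Hspa1a also overlaps the antisense gene Gm20481 over 564 exonic bases; that gene had 0 reads in all 6 libraries, and the strand setting of the counting is not given in the sources used here. With the reads of both genes summed as 1 gene, an alternative chosen after seeing the data, the pair stood at 48.4 ± 22.1 CPM in Lingo2-/- and 10.1 ± 2.56 CPM in wild type libraries (SD, n = 3 each). The summed pair had a log2 fold change of 2.27 ± 0.41 (SE; edgeR adjusted p = 0.0671), which did not pass, while its lowest Lingo2-/- library was 2.53 times its highest wild type library. Hspa1a took 23.3%, 19.4% and 18.5% of the pair's reads in Lingo2-/- replicates 1, 2 and 3 and 14.2%, 15.7% and 19.0% in wild type replicates 1, 2 and 3. The groups overlapped, since Lingo2-/- replicate 3 lay below wild type replicate 3. By 95% exact binomial intervals, which cover counting error only, Lingo2-/- replicate 1 (20.04% to 26.8%) lay above wild type replicate 1 (10.1% to 19.1%), and every other pair of a Lingo2-/- and a wild type library overlapped.

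**Figure D2:**
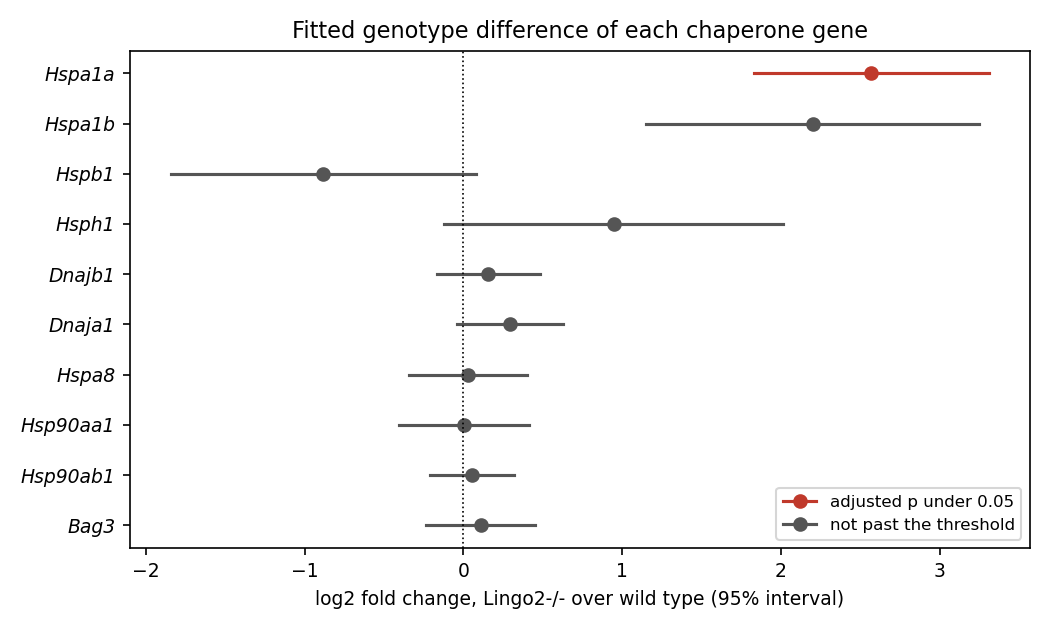
Fitted log2 fold change of each gene, Lingo2-/- over wild type, with its 95% interval from the edgeR fit before adjustment over genes; red marks an adjusted p under 0.05. Hspa1a at 2.57 and Hspa1b at 2.20 lie farthest right, Hspb1 at −0.88 lies on the left, and the intervals of all genes other than the Hspa1 pair include 0.

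Reads of other chaperones of the set gave a comparison within each library that does not depend on scaling. Per 1000 reads of Hspa8, Hspa1a and Hspa1b together had 82.8, 82.2 and 155 reads in Lingo2-/- replicates 1, 2 and 3, against 21.5, 18.1 and 29.8 reads in wild type replicates 1, 2 and 3. The mean was 107 ± 42.0 in Lingo2-/- and 23.1 ± 6.05 in wild type libraries (SD, n = 3 each), and the geometric means differed 4.50-fold. The difference of log2 ratios was 2.17 with a two-sided exact permutation p = 0.1, which is the smallest p that 3 libraries against 3 can give. Against Hsp90ab1 the difference was 2.15, and against Hspa8, Hsp90ab1, Hsp90aa1 and Dnaja1 summed it was also 2.15, both with an exact permutation p = 0.1. Together the 10 genes summed to 1066, 781 and 1051 CPM in Lingo2-/- replicates 1, 2 and 3 and to 1038, 834 and 775 CPM in wild type replicates 1, 2 and 3. The Hspa1 pair made up 3.78% to 6.92% of that sum in Lingo2-/- libraries and 0.854% to 1.47% in wild type libraries, and Hspa8 alone made up 44.6% to 48.6% in Lingo2-/- and 47.3% to 52.4% in wild type libraries.

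**Figure D3:**
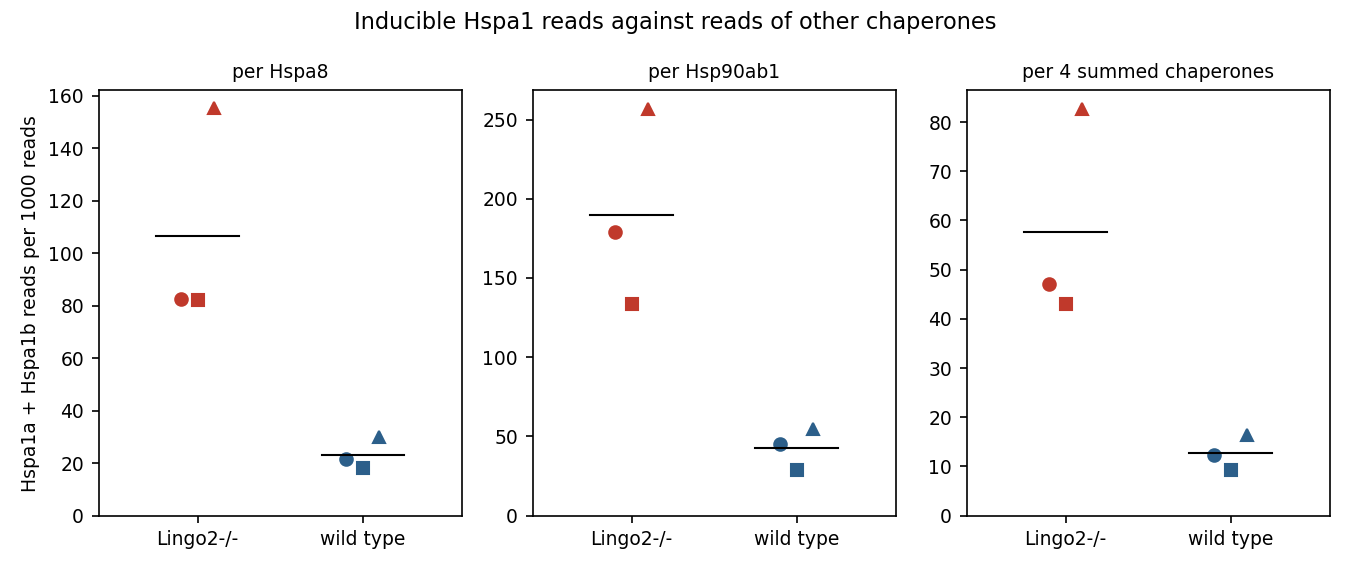
Reads of Hspa1a and Hspa1b per 1000 reads of Hspa8, of Hsp90ab1 and of Hspa8, Hsp90ab1, Hsp90aa1 and Dnaja1 summed, with Lingo2-/- libraries in red, wild type libraries in blue, circles, squares and triangles for replicates 1, 2 and 3, and bars for the means. All Lingo2-/- points lie above all wild type points in each panel, from 82.2 to 155 against 18.1 to 29.8 per 1000 Hspa8 reads.

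Of Hspa8 and the HSP90 genes none passed the edgeR, DESeq2 or voom test. Hspa8 (chromosome 9, 40800984 to 40810087, plus strand), the HSP70 that folds new proteins and uncoats clathrin vesicles, had 518, 360 and 468 CPM in Lingo2-/- replicates 1, 2 and 3 and 544, 394 and 383 CPM in wild type replicates 1, 2 and 3, and the groups overlapped. Its log2 fold change was 0.03 ± 0.17 (SE; edgeR adjusted p = 0.949), with a 95% interval of −0.34 to 0.40. Hsp90ab1 (chromosome 17, 45567775 to 45573271, minus strand), the constitutive cytosolic HSP90, had 239, 222 and 283 CPM in Lingo2-/- replicates 1, 2 and 3 and 259, 248 and 209 CPM in wild type replicates 1, 2 and 3. Its groups also overlapped, at a log2 fold change of 0.05 ± 0.12 (SE; edgeR adjusted p = 0.848; 95% interval −0.21 to 0.32). Hsp90aa1 (chromosome 12, 110690605 to 110702728, minus strand), the stress-responsive cytosolic HSP90, averaged 82.8 ± 13.7 CPM in Lingo2-/- and 82.8 ± 18.6 CPM in wild type libraries (SD, n = 3 each; log2 fold change 0.005 ± 0.18, SE, 95% interval −0.40 to 0.41, edgeR adjusted p = 0.992). The fitted signs of Hspa8, Hsp90aa1 and Hsp90ab1 turned when single libraries were left out, and that of Hsp90aa1 turned with upper quartile scaling (−0.01) too. The intervals leave room for changes of up to 0.41 on the log2 scale in these genes.

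Hsph1 (chromosome 5, 149614287 to 149636376, minus strand), the HSP110 that exchanges the nucleotide of HSP70 and is itself a heat shock gene, split the Lingo2-/- libraries. It had 52.5, 17.95 and 38.9 CPM in Lingo2-/- replicates 1, 2 and 3, against 23.8, 16.9 and 17.0 CPM in wild type replicates 1, 2 and 3. Replicates 1 and 3 of Lingo2-/- lay above all wild type libraries, and Lingo2-/- replicate 2 lay among them. The log2 fold change was 0.95 ± 0.41 (SE; edgeR adjusted p = 0.317; 95% interval −0.12 to 2.02), and it passed only without Lingo2-/- replicate 2 (1.25 ± 0.18, edgeR adjusted p = 0.0227, against up to 0.570 over the alternatives that leave out a library). None of its 75-base stretches occurs in another gene's transcripts, so its count rests on its whole length.

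Dnajb1 (chromosome 8, 83608193 to 83612653, plus strand), a J-domain protein that delivers clients to HSP70 and is induced by heat, had 41.1, 26.4 and 37.8 CPM in Lingo2-/- replicates 1, 2 and 3 and 32.1, 28.6 and 34.3 CPM in wild type replicates 1, 2 and 3. Its groups overlapped, at a log2 fold change of 0.16 ± 0.15 (SE; edgeR adjusted p = 0.605; 95% interval −0.17 to 0.48). Dnaja1 (chromosome 4, 40722150 to 40737149, plus strand), a J-domain partner of Hspa8, had 59.7, 39.0 and 40.8 CPM in Lingo2-/- replicates 1, 2 and 3 and 41.0, 36.1 and 37.9 CPM in wild type replicates 1, 2 and 3. Lingo2-/- replicate 1 stood apart and the other two lay within the wild type range, at 0.29 ± 0.15 (log2 fold change, SE; edgeR adjusted p = 0.333). Bag3 (chromosome 7, 128523616 to 128546981, plus strand), the cochaperone that links HSP70 and small heat shock proteins to autophagy, had 14.9, 14.3 and 21.5 CPM in Lingo2-/- replicates 1, 2 and 3 and 17.6, 14.4 and 14.9 CPM in wild type replicates 1, 2 and 3. Only Lingo2-/- replicate 3 exceeded the wild type libraries, and the log2 fold change was 0.11 ± 0.16 (SE; edgeR adjusted p = 0.750; 95% interval −0.23 to 0.45), with a value of −0.10 without that library. Dnaja1 shares 608 exonic bases with Smu1 on the opposite strand, so its count is uncertain there.

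Hspb1 (chromosome 5, 135887919 to 135889563, plus strand), the small heat shock protein that holds unfolded proteins and binds actin, was the 1 member with a fitted value below 0. It had 39, 40 and 15 reads in Lingo2-/- replicates 1, 2 and 3 and 161, 170 and 76 reads in wild type replicates 1, 2 and 3, which is 2.69, 4.99 and 1.74 CPM in Lingo2-/- libraries and 7.41, 6.34 and 3.24 CPM in wild type libraries. The groups overlapped, since Lingo2-/- replicate 2 lay above wild type replicate 3. The log2 fold change was −0.88 ± 0.42 (SE; edgeR adjusted p = 0.309; 95% interval −1.84 to 0.08), and with no filter on low counts it passed (edgeR adjusted p = 0.00331, against 0.0747 to 0.578 when a library was left out). The 5 fibroblast markers, all detected, summed to 223, 492 and 286 CPM in Lingo2-/- replicates 1, 2 and 3 and to 969, 873 and 329 CPM in wild type replicates 1, 2 and 3. Within each genotype the library with the highest Hspb1 was thus also the one with the highest fibroblast sum. Below the top the order did not hold in Lingo2-/-, where replicate 1 had more Hspb1 than replicate 3 but the lower fibroblast sum. The part of fibroblast RNA in the Hspb1 difference was not tested. The smooth muscle markers summed to 10.2 to 13.5 CPM in Lingo2-/- and 10.6 to 13.2 CPM in wild type libraries. Of the 75-base stretches of Hspb1, 46.4% also occur in the pseudogene Hsp25-ps1.

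**Figure D4:**
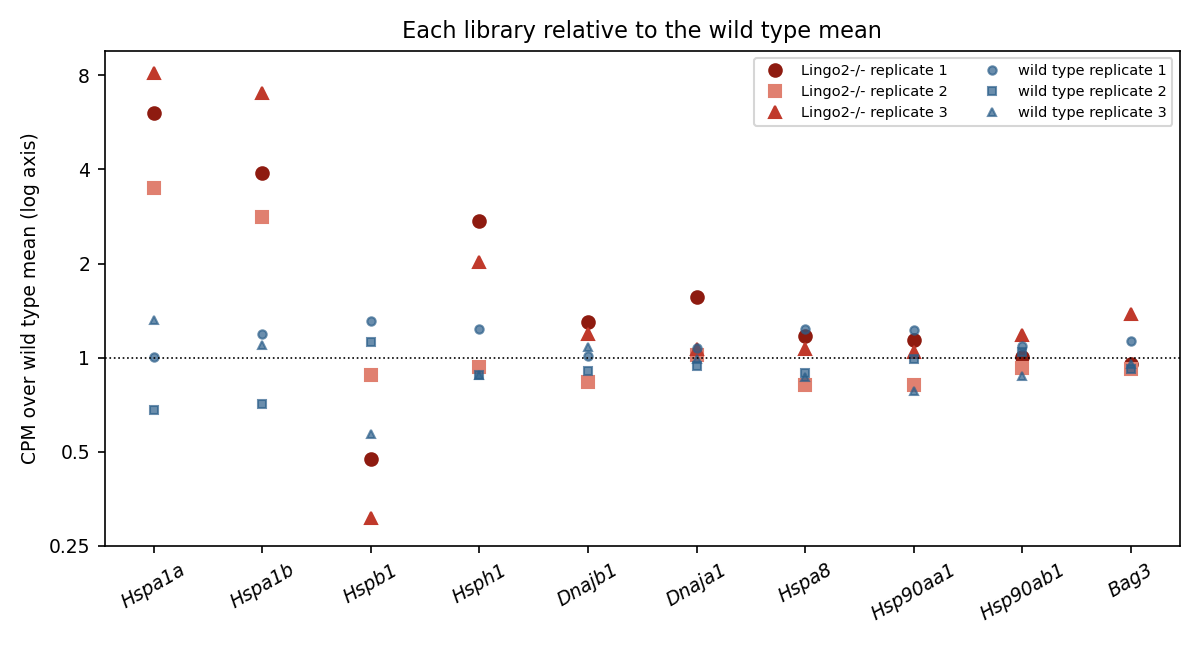
CPM of each library divided by the wild type mean of the gene, on a log axis, with Lingo2-/- libraries in reds and wild type libraries in blue. Lingo2-/- replicate 2 lies at 3.48 for Hspa1a and 2.83 for Hspa1b but at 0.934 for Hsph1, where replicates 1 and 3 lie at 2.73 and 2.02.

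Among the Lingo2-/- libraries the lowest one was the same for most members, while the highest one varied. Lingo2-/- replicate 2 was the lowest of the 3 Lingo2-/- libraries for 9 of the 10 genes, all but Hspb1. How often it was the lowest over all genes was not counted, so this order cannot be read as particular to these genes. Replicate 1 was the highest for 5 genes, Hsph1, Dnajb1, Dnaja1, Hspa8 and Hsp90aa1, and replicate 3 for 4, Hspa1a, Hspa1b, Hsp90ab1 and Bag3. Replicate 2 was the shallowest library of the series, and these genes share its library and its scaling. Relative to the wild type mean, Hspa1a stood at 6.06, 3.48 and 8.14 in Lingo2-/- replicates 1, 2 and 3, and Hspa1b at 3.90, 2.83 and 7.03. The coefficient of variation among libraries was 39.6% for Hspa1a, 47.6% for Hspa1b and 47.8% for Hsph1 in Lingo2-/-, against 31.9%, 25.3% and 20.5% in wild type libraries. For Hspa8 it was 18.1% in Lingo2-/- and 20.4% in wild type libraries.

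Per length the genes spanned a wide range. In CPM per kilobase of exon, Hspa8 averaged 104 in Lingo2-/- and 102 in wild type libraries. Hsp90ab1 averaged 82.7 in Lingo2-/- and 79.6 in wild type libraries, and Hsp90aa1 averaged 21.1 in both. Hspa1b averaged 13.8 CPM per kilobase in Lingo2-/- and 3.01 in wild type libraries, which put it between Hsp90aa1 and Dnajb1 in Lingo2-/- libraries and between Dnaja1 and Hsph1 in wild type libraries. Hspa1a averaged 3.28 CPM per kilobase in Lingo2-/- and 0.556 in wild type libraries, where it was the lowest of the 10. In Lingo2-/- libraries each neighbour in the order overlapped the next in its range over libraries, except Hsp90ab1 (73.9 to 94.3) and Hsp90aa1 (17.3 to 24.1). In wild type libraries the neighbours that overlapped were Bag3 (5.62 to 6.88) with Hspb1 (3.14 to 7.18), Hspb1 with Dnaja1 (4.18 to 4.75), and Hspa1b (2.14 to 3.58) with Hsph1 (2.33 to 3.27). By shared sequence alone, these levels understate the Hspa1 genes, Hspb1, Hspa8 and Hsp90aa1 relative to Bag3 and Hsph1. Of the 75-base stretches, 52.7% of Hspa1a, 46.4% of Hspb1, 36.2% of Hsp90aa1 and 30.2% of Hspa8 occur in a single other gene or pseudogene. None do in Bag3 and Hsph1. Exon length joins all annotated transcripts of a gene, at 7266 bases for Hsph1 and 8629 for Dnaja1. Hspa1a has 2967 bases and Hspa1b 2803. A gene with several transcripts can thus be divided by more bases than any 1 transcript holds, which understates it. This was not corrected.

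Beyond the 10 genes, 100 further genes of the heat shock network and of related stress responses were taken from lists, and 95 could be tested. Of these, 1 rose, Grpel2, and 1 fell, Nr4a1, and the median of their log2 fold changes was −0.04. That is 2 of 95 genes, where 2.57% of all genes changed, and 20 of the 95 had an unadjusted p under 0.05, where 3125 of 16757 genes did. The factors that regulate the response had 0 of 5 genes past the edgeR test, 1 at an unadjusted p under 0.05, and 0 by DESeq2 or limma voom. Hsf1, the master factor of the heat shock response, was at 16.8 ± 1.67 CPM in Lingo2-/- and 12.5 ± 0.532 CPM in wild type libraries (SD, n = 3 each), with groups that did not overlap (log2 fold change 0.43 ± 0.12, SE, edgeR adjusted p = 0.0729). Hsf4, a factor of lens development, was at 1.22 CPM in Lingo2-/- and 0.799 CPM in wild type libraries (edgeR adjusted p = 0.372).

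Of 9 further HSP70 and HSP110 genes none passed by edgeR, 1 had an unadjusted p under 0.05 and 1 passed by DESeq2; that gene, Hspa12a, a distant HSP70 relative, was at 10.1 ± 1.25 CPM in Lingo2-/- and 15.5 ± 3.28 CPM in wild type libraries (SD, n = 3 each; edgeR adjusted p = 0.0672). Hspa9, the mitochondrial HSP70, was at 0.19 ± 0.09 (log2 fold change, SE; edgeR adjusted p = 0.304). Hspa1l, the third gene of the Hspa1 cluster, stayed below the filter at 0.234 CPM in Lingo2-/- and 0.271 CPM in wild type libraries. Of 13 HSP90 genes and cochaperones 0 passed by edgeR, DESeq2 or voom and 2 had an unadjusted p under 0.05, Ahsa2, an activator of the HSP90 ATPase (0.59 ± 0.18, edgeR adjusted p = 0.108), and Ppid, a peptidyl-prolyl isomerase (0.26 ± 0.11, edgeR adjusted p = 0.246). None of the 16 J-domain genes passed by any of these tools, with 1 at an unadjusted p under 0.05, Dnajc7 (0.27 ± 0.09, edgeR adjusted p = 0.141), and Dnajc2 next (0.20 ± 0.12, edgeR adjusted p = 0.388). Among 9 HSP70 exchange and partner proteins 0 passed by any tool and 3 had an unadjusted p under 0.05, among them Stub1, the ubiquitin ligase that marks HSP70 clients (0.46 ± 0.14, edgeR adjusted p = 0.103), and Bag1, a nucleotide exchange factor (0.33 ± 0.11, edgeR adjusted p = 0.117). The 8 genes of the chaperonin TRiC, which folds actin and tubulin, had 0 past any tool and 0 at an unadjusted p under 0.05, with Cct6a at −0.20 ± 0.11 and Cct3 at −0.07 ± 0.09. Grpel2, a nucleotide exchange factor of mitochondrial HSP70, rose to 84.1 ± 3.67 CPM in Lingo2-/- libraries, against 62.5 ± 0.603 CPM in wild type libraries (SD, n = 3 each; log2 fold change 0.43 ± 0.08, SE, edgeR adjusted p = 0.0182), the 1 of 5 mitochondrial chaperones to pass. It lost its call without Lingo2-/- replicate 1, 2 or 3 and without wild type replicate 2.

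Of 5 further small heat shock proteins tested 0 passed by edgeR or voom, 1 passed by DESeq2 (Hspb8) and 1 had an unadjusted p under 0.05. Hspb8, the BAG3 partner, was at 1.72, 1.87 and 2.66 CPM in Lingo2-/- replicates 1, 2 and 3 and at 6.35, 5.71 and 2.34 CPM in wild type replicates 1, 2 and 3 (log2 fold change −1.23 ± 0.40, SE, edgeR adjusted p = 0.142). Cryab, alpha B crystallin, was at 1.38, 2.49 and 1.504 CPM in Lingo2-/- replicates 1, 2 and 3 and at 4.69, 3.73 and 1.32 CPM in wild type replicates 1, 2 and 3 (−0.90 ± 0.49, edgeR adjusted p = 0.369). For both, wild type replicate 3 lay with the Lingo2-/- libraries, and that library also had the lowest wild type fibroblast marker sum, given above; the part of this in the difference was not tested.

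Genes of other stress responses had list medians below 0, but so did most of the wider chaperone lists. The small heat shock proteins had the lowest median, at −0.34, and the HSP70 and HSP110 list lay at −0.09. The factors that regulate the response (0.18) and the HSP90 list (0.04) were the wider lists with medians above 0. The 9 stress genes that heat shock also induces had a median log2 fold change of −0.27 with 0 past edgeR, DESeq2 or voom and 4 at an unadjusted p under 0.05; they summed to 305 to 322 CPM in Lingo2-/- and 351 to 398 CPM in wild type libraries. Among them Ppp1r15a, which ends the integrated stress response, was at −0.52 ± 0.15 (log2 fold change, SE; edgeR adjusted p = 0.0859), and the polyubiquitin gene Ubb at −0.29 ± 0.09 (edgeR adjusted p = 0.104). Of 16 immediate early genes, which are transcribed quickly after stimuli or handling, 1 fell, Nr4a1, to 9.21 ± 1.82 CPM in Lingo2-/- libraries, against 16.04 ± 0.807 CPM in wild type libraries (SD, n = 3 each; log2 fold change −0.78 ± 0.14, SE, edgeR adjusted p = 0.0151), a call that ended without Lingo2-/- replicate 2 or 3. In that list 5 genes had an unadjusted p under 0.05, and 2 passed by DESeq2, Nr4a1 and Klf6, a zinc finger factor at 242 ± 7.25 CPM in Lingo2-/- and 328 ± 42.4 CPM in wild type libraries (SD, n = 3 each; edgeR adjusted p = 0.0627). The immediate early list had a median of −0.28 and summed to 1508 to 1773 CPM in Lingo2-/- and 1592 to 2278 CPM in wild type libraries.

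**Figure D5:**
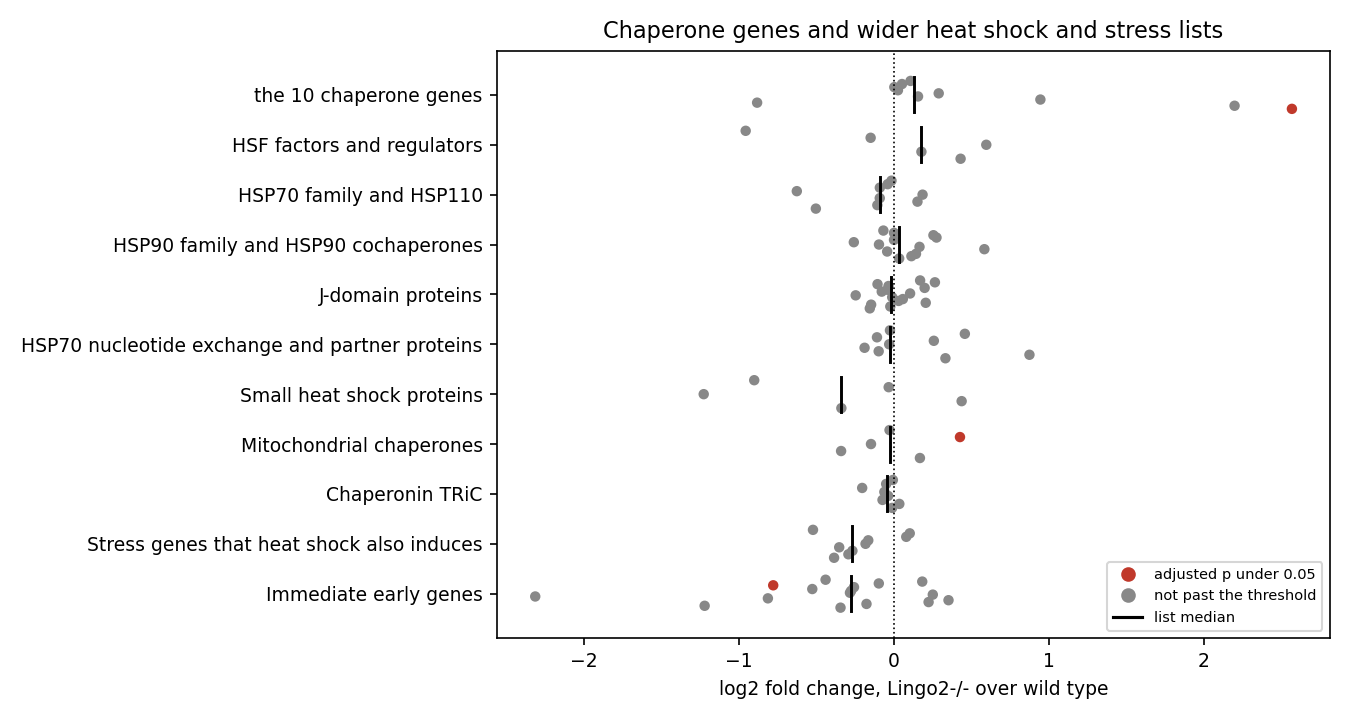
Fitted log2 fold change, Lingo2-/- over wild type, of each tested gene in the 10 chaperone genes and in the 10 wider lists, with a black bar at each list's median and red points at an adjusted p under 0.05. The red points are Hspa1a at 2.57, Grpel2 at 0.43 and Nr4a1 at −0.78. The medians of the stress list (−0.27), the immediate early list (−0.28) and the small heat shock proteins (−0.34) lie farthest left of 0.

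Over the 6 libraries, the genes with the log2 CPM pattern most like that of Hspa1a were Oas1g, Trap1, Chml, Gm15848 and Slc37a4, with a Pearson correlation of 0.992 to 0.997, the highest among 13114 genes at a log2 CPM of 1 or more. The 6 points fall into 2 genotypes and share library and scaling, so the likeness is a description. Their own log2 fold changes were far smaller, 0.35 ± 0.09 for Oas1g, 0.12 ± 0.09 for Trap1, 0.32 ± 0.12 for Chml, 1.03 ± 0.22 for Gm15848 and 0.39 ± 0.12 for Slc37a4 (SE). Of these, Gm15848 passed (edgeR adjusted p = 0.0287). The others did not, with edgeR adjusted p-values from 0.0595 for Oas1g to 0.501 for Trap1, which is in the HSP90 list above.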

How the data were processed

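Total RNA libraries were made with a stranded kit that removes ribosomal RNA, per the labels' protocols. The submitters' processing notes name GRCm38 as the build, and STAR, HTSeq, DESeq2 and Trimmomatic 0.39 as tools. The deposited table holds raw read counts per gene. A second deposited table holds the authors' comparison: normalized signal, each count times 1 factor per library, and the authors' log2 fold change, test score and p-value columns. The 5 summary lines that name no gene entered neither library sizes nor tests. Positions and exon lengths came from GENCODE M21 (GRCm38).

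The genotype effect on counts was fitted with edgeR 4.0.16 under R 4.3.3 (filterByExpr, TMM factors, robust dispersions, quasi-likelihood F test) over 16757 genes, with Benjamini-Hochberg adjustment and a threshold of 0.05. A standard error is a log2 fold change over the root of its F. The script was tested on simulated data. Ratios were tested with an exact permutation test over libraries. At a count of 0 the limit is 3 reads, 0.207 to 0.374 CPM in Lingo2-/- and 0.112 to 0.138 CPM in wild type libraries, for counting error only. No replicate pair agreed within sampling noise (chi-square per degree of freedom 8.40 to 19.4). The 10 genes and all lists were chosen with earlier results of these data known. Named genes of a wider list are its called members, or else the 2 with the smallest p. Symbols came from the authors' table and the reference for 45146 of 46078 rows; Hspa14 was not matched. Alternatives were other scaling (DESeq2 size factors, upper quartile, no mitochondrial genes), other filters, DESeq2 1.42.0, limma 3.58.1 voom, dispersions not robust, a replicate block and leaving out each library.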

Additional observations from a re-analysis of the deposited data

Results flagged for a closer look

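Reads outside annotated features, which enter no test above, made up at least 23.6% of the table and its summary lines in every Lingo2-/- library and at most 22.1% in wild type libraries. The Hspa1 genes were higher in the same libraries, and the part of this share in their difference was not tested.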

How the results depend on the processing

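Of the 10 genes, 1 passed in the fit as reported, 2 with no filter (Hspa1a and Hspb1), and 2 (Hspa1a and Hspa1b) with DESeq2, dispersions that are not robust or the replicate block; 1 to 3 passed when 1 library was left out, and 0 when the Hspa1 reads were summed. Hspa1a kept its call in all 15 other settings in which it was a gene of its own. Of 150 fold changes of single genes under these settings, 130 kept direction and side of the threshold, 7 passed newly and 13 changed sign, none of them called. These were Hsp90aa1 with upper quartile factors (−0.0147) and with no filter (−0.0154), and 11 values, all below 0, with 1 library left out: 4 of Hsp90aa1, 4 of Hspa8, 2 of Hsp90ab1 and 1 of Bag3. Over all 6 libraries left out in turn, fold changes ran from −0.146 to 0.178 for Hsp90aa1, from −0.0956 to 0.206 for Hspa8, from −0.0577 to 0.120 for Hsp90ab1 and from −0.100 to 0.200 for Bag3. The wider lists had 2 calls, where 430 of 16757 genes were called. They had 13 with no filter (1493 of 28829 genes), 5 with DESeq2 (655 of 15414) and 0 to 5 when 1 library was left out (174 to 674 genes). The cause was not tested.

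No pairing by replicate number was seen: deviations of same-numbered libraries correlated at −0.13, 0.13 and −0.02. Those of differently numbered libraries correlated at −0.16 to 0.19. With 3 libraries per group this cannot exclude pairing. With the replicate block Hspa1b passed (2.13 ± 0.18, edgeR adjusted p = 0.000940) and the wider lists had 2 calls, Nr4a1 and Egr2, and no longer Grpel2. The Hspa1 per Hspa8 difference is 2.17 with or without the block by arithmetic (exact permutation p = 0.25 over pairs, the smallest that 3 pairs can give). It ran from 1.87 to 2.37 when 1 library was left out, and was 2.50 for Hspa1a alone and 2.10 for Hspa1b alone. Hspa1a had 30 to 145 reads a library and Hspb1 15 to 170.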
